A study of Onthophagus taurus with 66 samples.

Results

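The transcripts described here are 61 of the 23725 annotated transcripts of the horned dung beetle *Onthophagus taurus* that had a higher level in the posterior lateral head (LatP) than in the other 3 regions of the dorsal head. Expression was taken as log2(CPM + 1), where CPM is the TMM-scaled count per 1000000 counts of the library, averaged first over both sides of each animal and then over 11 animals. All transcripts were ranked by the LatP mean minus the highest of the means in the anterior lateral (LatA), medial anterior (MA) and medial posterior (MP) regions. Of the 80 highest, 19 were left out because they are among 25 transcripts that the rule leaves out by name, and the other 61 are the members. The difference between LatP and the other regions therefore chose the members and is given as a description, without a test.

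The RNA came from pre-pupae, the last phase of the larva before pupation. They were from laboratory colonies founded with beetles caught in North Carolina and Western Australia, and only larvae above a set weight were used. The sample titles do not say from which of these places an animal descended. Dorsal heads of 6 males and 5 females were each cut into 6 pieces, which were left and right LatP, left and right LatA, MA and MP, and each piece gave 1 library. Brain, muscle and eye tissue had been removed in dissection, and a further female was dropped by the study because of its mapping. No animal was treated or mutant, so the groups are the 2 sexes and the 4 regions.

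In *O. taurus*, horns grow from the posterior lateral head of large males, whereas females carry a ridge there. The same part of the head borders the compound eye, whose specification in insects rests on Pax-6 proteins and a set of further transcription factors, and whose photoreceptors carry a light-sensing cascade. Shortly before pupation the head epidermis also separates from the old cuticle, secretes new cuticle and releases proteases into the space between them.

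Library totals ranged from 10807956 to 17048942 counts. A level of 3 counts was taken as the floor of a single library, which is 0.176 CPM where sequencing was deepest and 0.278 CPM where it was shallowest. These floors cover counting error only, since the reads carry no molecular identifiers. Each library was compared with the region means of the other animals of its sex. All LatP and all MP libraries were closest to their own region, but 5 anterior libraries were not, namely left LatA, right LatA and MA of male 1 and left and right LatA of female 2. With these 2 animals left out of the ranking, 48 of the 61 members stayed in the top 80.

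The 61 members averaged between 1.24 and 179.6 CPM in LatP, with a median of 8.88 CPM, and all of them exceeded 1 CPM in at least 2 libraries. Their LatP mean stood 0.99 to 3.29 above the next region on the log2 scale. The next region was MP for 33 members, LatA for 23 and MA for 5. At the edge of the top 80, XM_023060119.1, XM_023063376.1 and XM_023047190.1 had differences of 1.007, 0.999 and 0.994 and were inside, while XM_023047655.1, XM_023045702.1 and XM_023060057.1 had 0.992, 0.987 and 0.987 and were outside, so the edge does not mark a gap. LatP was the highest region in each of the 11 animals for 31 members, against 0.67% of the 15229 expressed transcripts. For 6 members the lowest of the 11 LatP values exceeded every value of the other regions, against 0.158% of expressed transcripts. Both counts follow from the rule that chose the members. The pieces are bulk tissue, so fewer cells of a type and less RNA per cell cannot be told apart in any of these values.

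**Figure D1:**
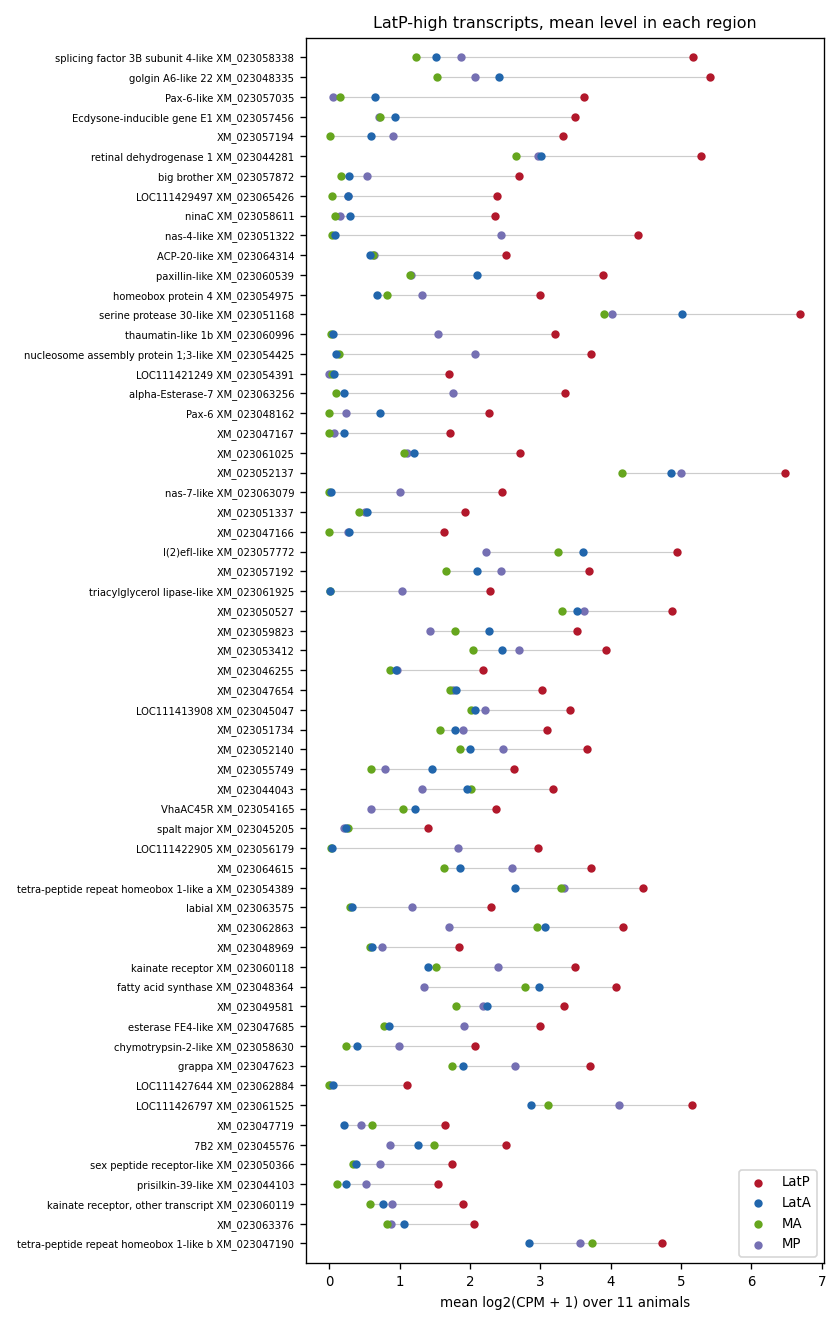
Mean level of the 61 members in LatP, LatA, MA and MP, in order of the ranking, as log2(CPM + 1) over 11 animals; each point is a region and the grey line spans from the lowest region to LatP. The points of LatP lie to the right of the others by 0.99 to 3.29, by construction, and the next region is MP for 33 members.

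No member is a noncoding RNA, although 2057 of all transcripts are. The study's supplementary tables gave a product name or best *Drosophila* match for 38 members, 5 of which they mark as taxon-restricted, and 23 members have no such name. In the later assembly IU_Otau_3.0, 46 of the members (75.4%) were found under the same identifier, as were 63.7% of all transcripts. The 41 member genes placed on numbered chromosomes included no pair within 10 positions of each other in gene order. XM_023060118.1 and XM_023060119.1 are transcripts of 1 gene, LOC111425846, between which RSEM divided the reads.

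Genes of eye development and photoreceptors, as grouped by name, formed a group of 6 members that were all highest in LatP in every animal. Retinal dehydrogenase 1 is in this group by its product name only, and its best *Drosophila* match is uncharacterized. Pax-6-like (XM_023057035.1) and Pax-6 (XM_023048162.1) have the *Drosophila* eye selector gene twin of eyeless as best match. Pax-6-like had LatP levels of 7.54, 9.56 and 10.1 CPM in males (lowest, median and highest of 6) and 10.8, 20.7, 17.5, 13.2 and 16.3 CPM in females 1 to 5. It averaged 12.2 ± 4.21 CPM in LatP (SD, n = 11), 0.824 CPM in LatA, 0.120 CPM in MA and 0.0350 CPM in MP, the last 2 of which are below the floor. The 6 males thus lay below the 5 females, and the whole LatP range was above every other region of any animal. Pax-6 was lower, at 4.84 ± 2.30 CPM in LatP and 1.11 CPM in LatA (SD, n = 11), and its LatP values did overlap those of other regions.

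Big brother (XM_023057872.1) encodes the partner subunit of Runt-domain transcription factors, one of which, Lozenge, acts in the *Drosophila* eye. Its LatP level was 2.88, 4.14 and 6.68 CPM in males (lowest, median, highest) and 7.36, 9.08, 8.13, 7.56 and 7.63 CPM in females 1 to 5. No male reached the level of a female. Spalt-major-like (XM_023045205.1), a zinc finger factor needed for photoreceptor types in *Drosophila*, had 0.535, 1.14 and 1.54 CPM in males and 3.08, 3.77, 2.95, 1.95 and 2.75 CPM in females 1 to 5. It likewise showed no overlap between the sexes, and its means of 0.189 CPM in LatA, 0.220 CPM in MA and 0.175 CPM in MP were at the floor.

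The fly photoreceptor kinase ninaC (XM_023058611.1), a myosin fused to a protein kinase, varied more. It had 2.15, 4.57 and 17.5 CPM in male LatP and 8.19, 2.75, 1.95, 3.16 and 6.58 CPM in LatP of females 1 to 5, while the other regions averaged 0.276 CPM in LatA, 0.0587 CPM in MA and 0.184 CPM in MP. The male and female ranges overlapped and male 5 was the highest animal. Male 5 was also highest for the summed list of 5 phototransduction transcripts, at 62.5 CPM in LatP, against 8.70 to 41.7 CPM in the other animals. That list holds ninaC itself and 3 of the transcripts left out by the rule. Retinal dehydrogenase 1 (XM_023044281.1), an aldehyde dehydrogenase that in vertebrates oxidises retinal, was more abundant and less confined, with 40.9 ± 12.4 CPM in LatP (SD, n = 11) against 7.84 CPM in LatA, 5.59 CPM in MA and 8.18 CPM in MP.

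The other regulators were labial, grappa and homeobox protein 4, each highest in LatP in all 11 animals. The transcript matched to labial (XM_023063575.1), the Hox gene of the anterior head in *Drosophila*, averaged 4.26 ± 1.51 CPM in LatP and 1.37 CPM in MP (SD, n = 11), with LatA and MA means under 0.278 CPM. Its LatP level was 3.22 to 5.36 CPM in males and 1.05 to 6.48 CPM in females, so the males fell within the female range. Grappa (XM_023047623.1), a histone methyltransferase in *Drosophila*, averaged 13.2 ± 4.99 CPM in LatP and 5.93 CPM in MP. Homeobox protein 4 (XM_023054975.1) averaged 8.08 ± 5.25 CPM in LatP, and its lowest LatP value was above all values of the other regions.

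Among members with other names, the largest differences between regions belonged to XM_023058338.1, described further on, golgin A6-like 22 and a gene matched to Ecdysone-inducible gene E1. Golgin A6-like 22 (XM_023048335.1) averaged 44.5 ± 16.4 CPM in LatP (SD, n = 11) against 4.95 CPM in LatA, 2.15 CPM in MA and 3.48 CPM in MP. Its LatP level was 30.3, 37.7 and 77.3 CPM in males and 26.0, 31.6, 38.2, 51.4 and 64.6 CPM in females 1 to 5, so the sexes overlapped, and no other region of any animal exceeded 8.16 CPM. The Ecdysone-inducible gene E1 match (XM_023057456.1), which in *Drosophila* responds to the moulting hormone, averaged 11.2 ± 3.26 CPM in LatP and between 0.964 and 1.60 CPM elsewhere.

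Paxillin-like (XM_023060539.1), named for an adaptor protein of focal adhesions, averaged 15.1 ± 6.35 CPM in LatP and 4.25 CPM in LatA (SD, n = 11). The unnamed XM_023057194.1 averaged 10.9 ± 4.65 CPM in LatP, 0.954 CPM in LatA and 1.51 CPM in MP. LOC111429497 (XM_023065426.1) averaged 5.51 ± 4.08 CPM in LatP and at most 0.328 CPM elsewhere. All 3 thus had their second level well below that in LatP. Cuticular protein ACP-20-like (XM_023064314.1), a structural protein of the exoskeleton, averaged 6.73 ± 7.85 CPM in LatP, so that its SD exceeded its mean. Fatty acid synthase (XM_023048364.1) averaged 16.8 ± 5.34 CPM in LatP and 8.69 CPM in LatA. Lethal(2)essential for life-like (XM_023057772.1), a relative of the small heat shock proteins, averaged 32.7 ± 16.7 CPM in LatP and 12.9 CPM in LatA.

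Serine protease 30-like (XM_023051168.1) was the most abundant enzyme, with 43.9, 93.4 and 118 CPM in male LatP (lowest, median, highest) and 111, 96.4, 166, 139 and 198 CPM in LatP of females 1 to 5. The sexes overlapped, and it was also well detected elsewhere, at 65.5 CPM in LatA, 33.8 CPM in MA and 22.6 CPM in MP. LatA was above LatP in male 2 (199 against 118 CPM) and male 5 (149 against 110 CPM). Prisilkin-39-like (XM_023044103.1), whose name is that of a shell matrix protein of pearl oysters, averaged 2.98 ± 3.98 CPM in LatP and 0.515 CPM in MP (SD, n = 11), and is marked taxon-restricted. LOC111421249 (XM_023054391.1), likewise marked, averaged 2.43 ± 0.845 CPM in LatP and at most 0.0473 CPM elsewhere. LOC111426797 (XM_023061525.1) was of the opposite kind, with 37.2 ± 14.4 CPM in LatP and 18.8 CPM in MP. LOC111427644 (XM_023062884.1) was the lowest member, at 1.24 ± 0.609 CPM in LatP. The 22 members without a product name or a named transcript of the same gene averaged 2.37 to 179.6 CPM in LatP, and 8 of them were highest in LatP in all 11 animals.

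The 4 neural signalling transcripts were low to moderate in LatP. The kainate receptor transcript XM_023060118.1, which encodes a glutamate-gated channel, averaged 12.2 ± 7.66 CPM in LatP and 5.26 CPM in MP (SD, n = 11), and XM_023060119.1 of the same gene averaged 3.52 ± 2.62 CPM in LatP. XM_023045576.1, matched to the *Drosophila* neuroendocrine chaperone 7B2, averaged 5.00 ± 1.55 CPM, and sex peptide receptor-like (XM_023050366.1), a G protein-coupled receptor, averaged 2.48 ± 0.922 CPM. Each of the 4 except XM_023060119.1 was highest in LatP in all 11 animals.

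A further pattern was that of 8 members with LatA and MA means under 0.278 CPM and an MP mean over 1 CPM, that is, transcripts of the posterior head. They were the astacin-type metalloproteinases nas-4-like (XM_023051322.1) and nas-7-like (XM_023063079.1), triacylglycerol lipase-like (XM_023061925.1), thaumatin-like 1b (XM_023060996.1), the alpha-Esterase-7 match (XM_023063256.1), labial, nucleosome assembly protein 1;3-like (XM_023054425.1) and LOC111422905 (XM_023056179.1), whose best *Drosophila* match is an alkaline phosphatase. The last 2 are marked taxon-restricted. This grouping was made after the values were seen.

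In MP, 7 of the 8 had a higher mean in males than in females, labial being the exception. These 7 were in the top 80 of females but not in that of males. The rule used their MP levels, which were low in females, so their sex difference in MP is a description. Nas-4-like had 5.67, 17.7 and 55.6 CPM in male LatP (lowest, median, highest) and 53.7, 60.3, 7.36, 52.9 and 7.40 CPM in LatP of females 1 to 5. In MP it had 0.713, 11.7 and 16.8 CPM in males and 0.150, 2.61, 2.15, 4.66 and 1.60 CPM in females 1 to 5. All 5 female MP values lay below those of 5 of the 6 males, and male 5 was the exception. Nucleosome assembly protein 1;3-like had 5.35, 8.80 and 29.0 CPM in male LatP and 24.0, 13.5, 17.8, 17.3 and 9.60 CPM in LatP of females 1 to 5. In MP it had 0.357, 10.5 and 33.7 CPM in males and 0.225, 0.435, 0.119, 0.150 and 2.49 CPM in females 1 to 5. In 4 of the 6 males, MP was higher than LatP, and in all 5 females LatP was higher. The male over female log2 fold change (log2FC) of this transcript in MP was 4.21 with a standard error (SE) of 1.12, an unadjusted p of 0.00309 and an adjusted p of 0.379 in edgeR's quasi-likelihood test, so it was not called.

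**Figure D2:**
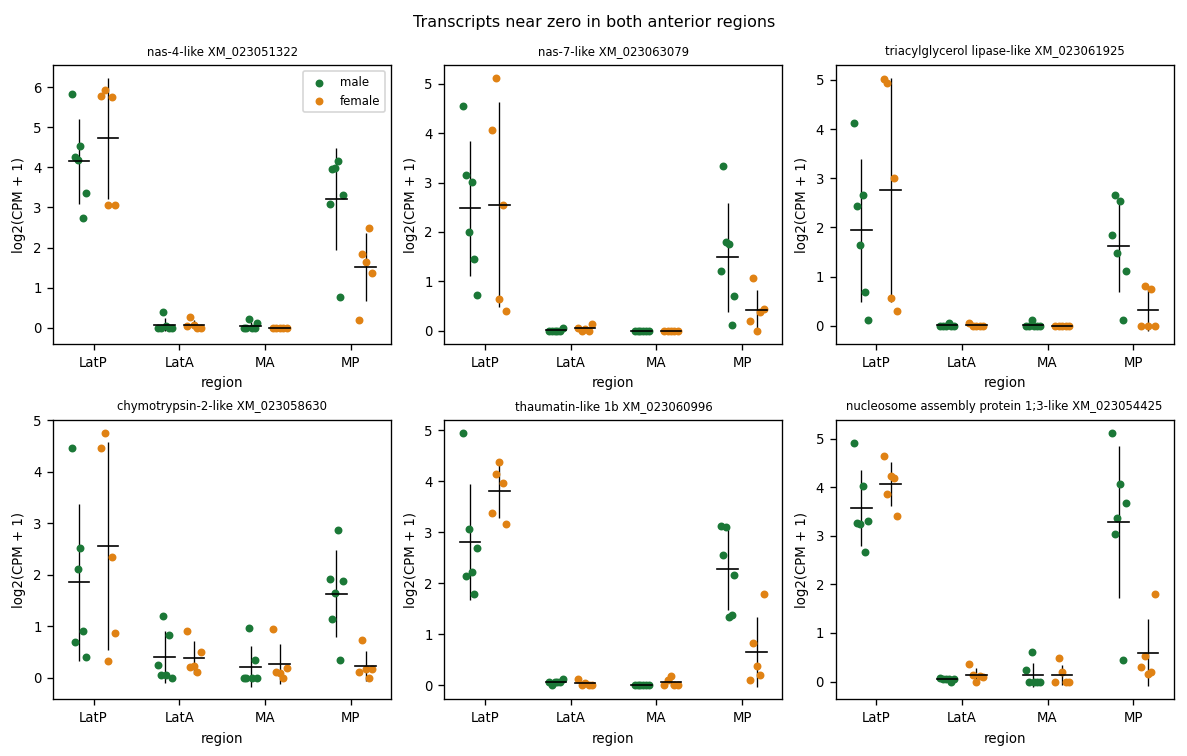
Levels of 6 transcripts in LatP, LatA, MA and MP as log2(CPM + 1); each point is an animal, males in green left of females in orange, the horizontal bars are means and the vertical bars are SD. Chymotrypsin-2-like, whose LatA mean was 0.369 CPM, is shown beside 5 of the 8 members with both anterior means under the floor, and in MP the 6 males averaged 13.0 CPM and the 5 females 0.685 CPM for nucleosome assembly protein 1;3-like.

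Thaumatin-like 1b, named for a family of secreted proteins first known from plants, had 2.43, 4.53 and 29.7 CPM in male LatP and 9.34, 16.7, 19.7, 14.6 and 7.87 CPM in LatP of females 1 to 5. In MP it had 1.52, 4.17 and 7.72 CPM in males and 0.0750, 0.762, 0.298, 0.150 and 2.43 CPM in females 1 to 5. The sexes overlapped in both regions, and male 1 was highest in LatP. The alpha-Esterase-7 match, a carboxylesterase, had 3.82, 6.77 and 11.7 CPM in male LatP and 7.50, 7.49, 32.4, 16.7 and 14.9 CPM in LatP of females 1 to 5, with a mean of 3.42 CPM in MP. Its male and female LatP ranges overlapped, and female 3 was highest. Esterase FE4-like, another member of that enzyme family, averaged 7.88 ± 4.34 CPM in LatP and 3.55 CPM in MP (SD, n = 11), with LatA and MA means of 0.924 and 0.846 CPM.

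Several enzymes also differed between animals within LatP. Nas-7-like had 22.2, 15.8 and 33.7 CPM in LatP of male 1, female 1 and female 2, and 0.560 and 0.320 CPM in LatP of females 3 and 5. Triacylglycerol lipase-like had 16.4, 31.5 and 29.6 CPM in the first 3 of these animals and 0.473 and 0.229 CPM in females 3 and 5. Chymotrypsin-2-like (XM_023058630.1), a serine protease, had 21.1, 21.1 and 26.0 CPM in the first 3 and 0.252 and 0.824 CPM in females 3 and 5. In all, 6 members had male 1, female 1 and female 2 as their 3 highest animals in LatP. Their median in LatP was 21.7, 29.3 and 31.7 CPM in these animals and 1.02 to 10.1 CPM in the other 8. This pattern was noticed in the values and carries no test.

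Another group of 19 members, 11 of them in no product group, had females 3 and 5 among their 3 highest animals in LatP. This grouping too was made after the values were seen and carries no test. The share of all expressed transcripts with the same highest animals was not computed for this group or the 6 members above. Neither pattern can therefore be called particular to the members. XM_023058338.1, annotated as splicing factor 3B subunit 4-like yet marked taxon-restricted, had the largest difference between regions of all members. Its LatP level was 19.5, 19.3, 13.9, 7.44, 89.0 and 8.84 CPM in males 1 to 6 and 15.3, 45.2, 535, 30.2 and 315 CPM in females 1 to 5. Females 3 and 5 were also the 2 highest animals in LatA, at 63.5 and 38.6 CPM against at most 1.88 CPM in the others, and in MP, at 209 and 98.8 CPM against at most 4.46 CPM. LatP nevertheless was the highest region in each of the 11 animals.

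XM_023052137.1, the member with the highest LatP mean, had 13.1, 88.3 and 125 CPM in male LatP (lowest, median, highest) and 67.9, 33.8, 622, 271 and 503 CPM in LatP of females 1 to 5. XM_023064615.1 had 0.268, 7.64 and 53.9 CPM in males and 12.1, 3.62, 391, 72.1 and 172 CPM in females 1 to 5. For both, females 3, 4 and 5 were above all males, whereas females 1 and 2 fell among them. The high levels of females 3 and 5 were not confined to LatP. In MP they had 550 and 141 CPM of XM_023052137.1 and 393 and 126 CPM of XM_023064615.1. LatP was the highest region in 9 of the 11 animals for XM_023052137.1 and in 6 for XM_023064615.1. XM_023050527.1 was split in another way, with 98.6 and 88.1 CPM in LatP of males 2 and 5 and 115 and 178 CPM in females 3 and 5 against 8.48 to 19.5 CPM in the other 7 animals. In MP these 4 animals had 212, 185, 175 and 297 CPM, above their own LatP, and the others had at most 3.31 CPM. For this member 85.9% of the variance of the log2 levels over the 11 animals and 4 regions lay between animals. Over all members that share had a median of 15.4% and ranged from 1.26% to 85.9%, and it exceeded the share between regions in 15 members. The median share over all expressed transcripts was higher than that of the members. The rule chose members by their difference between regions, which favours a low share between animals, so nothing is read from this.

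**Figure D3:**
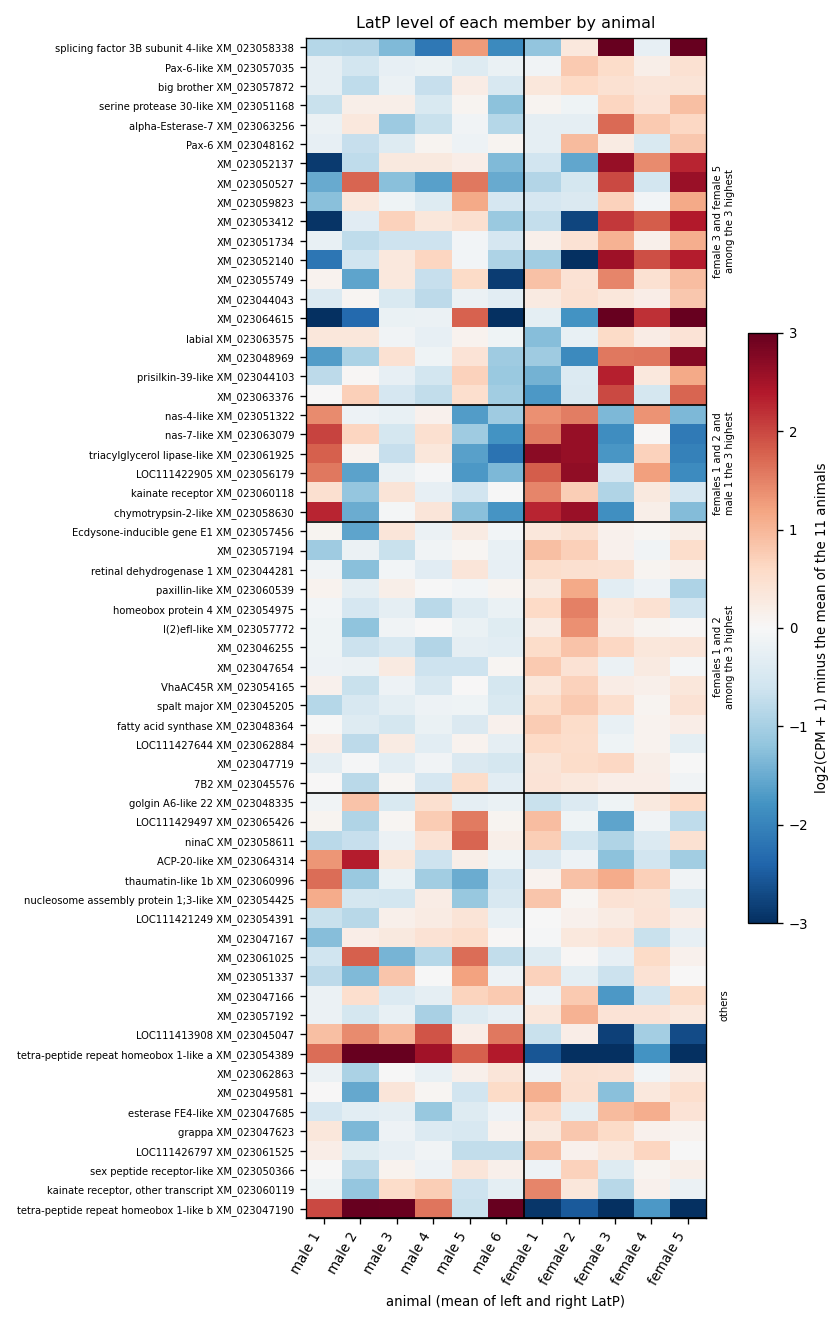
LatP level of the 61 members in each animal, males left of females, as log2(CPM + 1) minus the mean of the 11 animals (red higher, blue lower, with values beyond 3 in either direction drawn as 3). Horizontal lines separate 19 members with females 3 and 5 among their 3 highest animals, 6 with females 1 and 2 and male 1, 14 with females 1 and 2 and an animal other than male 1, and the rest.

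Summed levels of other marker lists also differed between animals in LatP. The lists were matched to product names in the study's table of differentially expressed transcripts, so they hold transcripts chosen on these samples. The muscle list, 12 transcripts of troponins, tropomyosin and other muscle proteins with none at 0 throughout, summed to 17.3 to 86.2 CPM in LatP of males, and to 62.0, 32.9, 197, 240.4 and 292 CPM in LatP of females 1 to 5. The single hemocyte transcript had 0.564 CPM in LatP of male 1, 2.12 to 11.3 CPM in the other males and 2.29, 0.364, 30.6, 17.3 and 25.9 CPM in females 1 to 5. Both were higher in females 3, 4 and 5 than in any other animal. The cuticle list of 24 transcripts summed to 1360.2 and 776 CPM in LatP of males 2 and 5 and 1129.6 and 965 CPM in females 3 and 5, against 175 to 739 CPM in the other 7 animals, and 1 of its transcripts is a member. The part of muscle, hemocyte and cuticle transcripts in the levels of these members was not tested, and the fat body list matched no transcript.

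Males and females were then compared in LatP to ask which members differed between the horn-bearing sex and the other. Left and right counts were added for each animal and tested with edgeR's quasi-likelihood test, with Benjamini-Hochberg adjustment over 13412 transcripts. All 61 members could be tested and 5 were called at an adjusted p under 0.05, which is 8.20% of the members against 1.42% of all transcripts tested. Of these, 2 were higher in males, against 1.03% of all transcripts, and 3 were lower in males, against 0.395%. The rule used LatP levels of both sexes, so a transcript could become a member through 1 sex alone, and nothing is read from these shares. In rankings by sex, 15 members were in the top 80 of males only and 22 in that of females only. The log2FC of male over female was positive in 12 and negative in 49 members, with a median of -0.65 against -0.07 over all transcripts tested. At an unadjusted p under 0.05 there were 4 members higher and 22 lower in males, which is 26 of 61, against 17.4% of all transcripts tested. The study counted left and right pieces as separate replicates, and under that design 19 members were called, against 13.7% of all transcripts. DESeq2 called 16, against 8.92%. The count of 5 fell to 2 without female 2, female 3, female 4 or male 4, to 3 without male 2, to 1 without male 3 or male 6 and to 0 without female 5.

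The 2 members higher in males are both annotated as tetra-peptide repeat homeobox protein 1-like. Reads could be divided between such a pair, which was not tested, so the level of each is uncertain. XM_023054389.1 had 70.9, 662, 192, 127, 76.8 and 116 CPM in LatP of males 1 to 6 and 2.83, 0.905, 0, 5.44 and 0.472 CPM in LatP of females 1 to 5. Every male was above every female, with a log2FC of 6.79 (SE 1.31). XM_023047190.1 had 104, 501, 208, 80.1, 15.8 and 423 CPM in males 1 to 6 and 2.54, 3.62, 1.20, 7.13 and 1.59 CPM in females 1 to 5. Again the sexes did not overlap, with a log2FC of 6.16 (SE 0.98). Among the members, males above females without overlap were seen in these 2, against 2.21% of expressed transcripts.

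Both transcripts entered the top 80 through males, since LatP was the highest region in all 6 males and in none of the 5 females. The rule thus used their high male LatP levels, and the sex difference of this pair is a description. For XM_023054389.1, the male means were 207 CPM in LatP, 8.24 CPM in LatA, 22.2 CPM in MA and 26.6 CPM in MP, and the female means were 1.93, 4.10, 3.85 and 5.05 CPM in the same order. For XM_023047190.1 the male means were 222, 9.41, 22.2 and 25.0 CPM, and the female means were 3.22, 5.79, 8.27 and 8.66 CPM. LatP was thus the region with the lowest mean of both transcripts in females. When the ranking was made in males alone, 34 members were in its top 80, in females alone 41, and 19 were in both.

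LOC111413908 (XM_023045047.1) and ACP-20-like had higher mean levels in males and were not called by edgeR on summed sides, whereas DESeq2 and the design with separate sides called both. LOC111413908 had 19.2, 27.6, 20.3, 38.6, 11.3 and 31.3 CPM in LatP of males 1 to 6 and 5.74, 11.4, 0.547, 4.34 and 0.684 CPM in females 1 to 5, with a log2FC of 2.47 (SE 0.74), and it was in the top 80 of males but not in that of females. Only male 5, the lowest male, was under the highest female. ACP-20-like had 2.78, 5.89 and 28.3 CPM in males (lowest, median, highest) and 3.28, 4.22, 1.47, 2.85 and 1.81 CPM in females 1 to 5, with a log2FC of 1.93 (SE 0.61, edgeR adjusted p = 0.139, DESeq2 adjusted p = 0.019). The neuron list of 8 transcripts summed to 285 to 1095 CPM in LatP of males and 137 to 204 CPM in LatP of females. Most of this sum was 1 transcript annotated as neuropeptide-like 3 (XM_023046186.1), with a mean of 375 CPM in LatP. The study lists that transcript as uncharacterized and putatively taxon-restricted, so the sum says little about neurons. ELAV-like protein 3 and synaptotagmin-16 averaged 4.52 and 0.499 CPM in LatP. The kainate receptor member, also in the list, averaged 9.88 CPM in male and 14.9 CPM in female LatP. Male 2 was highest for the neuron list and for XM_023054389.1, XM_023047190.1 and ACP-20-like. The glia list of 2 transcripts, glial cells missing-like and an excitatory amino acid transporter, summed to 2.24 to 4.42 CPM in LatP of males and 0.708 to 1.57 CPM in LatP of females. Neither list overlapped between the sexes, and the part of both in the sex difference of these members was not tested.

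**Figure D4:**
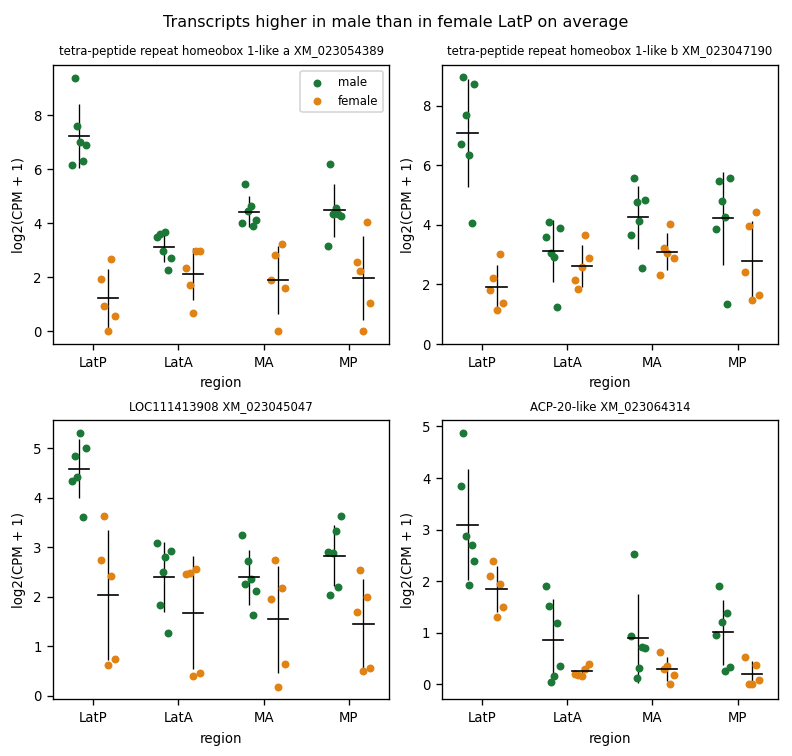
Levels of XM_023054389.1, XM_023047190.1, LOC111413908 and ACP-20-like in LatP, LatA, MA and MP as log2(CPM + 1); each point is an animal, males in green left of females in orange, the horizontal bars are means and the vertical bars are SD. For the tetra-peptide repeat pair the 6 male LatP values lie above all 5 female ones, from 70.9 CPM against at most 5.44 CPM and from 15.8 CPM against at most 7.13 CPM.

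The 3 members called lower in males have no product name. XM_023046255.1 had 1.48, 2.51 and 3.18 CPM in male LatP (lowest, median, highest) and 5.69, 7.33, 6.07, 4.83 and 4.95 CPM in LatP of females 1 to 5, with a log2FC of -1.22 (SE 0.21, edgeR adjusted p = 0.0289). XM_023051734.1 had 4.07, 4.82 and 7.10 CPM in males and 8.51, 10.5, 16.7, 8.53 and 17.4 CPM in females 1 to 5, with a log2FC of -1.19 (SE 0.24, edgeR adjusted p = 0.0398). XM_023057192.1 had 5.81, 9.67 and 10.8 CPM in males and 15.7, 26.2, 16.6, 16.7 and 15.5 CPM in females 1 to 5, with a log2FC of -0.95 (SE 0.20), and was in the top 80 of females but not in that of males. In each of them all 6 males were below all 5 females. In all, 10 members showed this separation, against 1.93% of expressed transcripts. Among them were Pax-6-like, big brother, spalt-major-like, lethal(2)essential for life-like and VhaAC45R (XM_023054165.1), an accessory subunit of the proton pump of acid organelles. The rule used female LatP levels, so nothing is read from this share. XM_023057192.1, XM_023047719.1, spalt-major-like and VhaAC45R were in the top 80 of females but not in that of males.

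Of the eye regulators, Pax-6-like, spalt-major-like and big brother were not called by edgeR on summed sides, whereas DESeq2 called all 3 as lower in males and the design with separate sides called Pax-6-like and big brother. Pax-6-like had a log2FC of -0.72 (SE 0.16, edgeR adjusted p = 0.0586, DESeq2 adjusted p = 0.00164), spalt-major-like of -1.27 (SE 0.29, edgeR adjusted p = 0.0581, DESeq2 adjusted p = 0.000451) and big brother of -0.85 (SE 0.20, edgeR adjusted p = 0.0681, DESeq2 adjusted p = 0.00329). Spalt-major-like was in the top 80 of females but not in that of males. The summed list of 9 eye specification transcripts, which holds both Pax-6 members and 4 of the transcripts left out by the rule, had 45.9 to 61.6 CPM in LatP of males and 89.0 to 136 CPM in LatP of females. Its part in the sex difference of other members was not tested. NinaC was the member of the eye group with a positive log2FC, of 0.49 (SE 0.58).

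**Figure D5:**
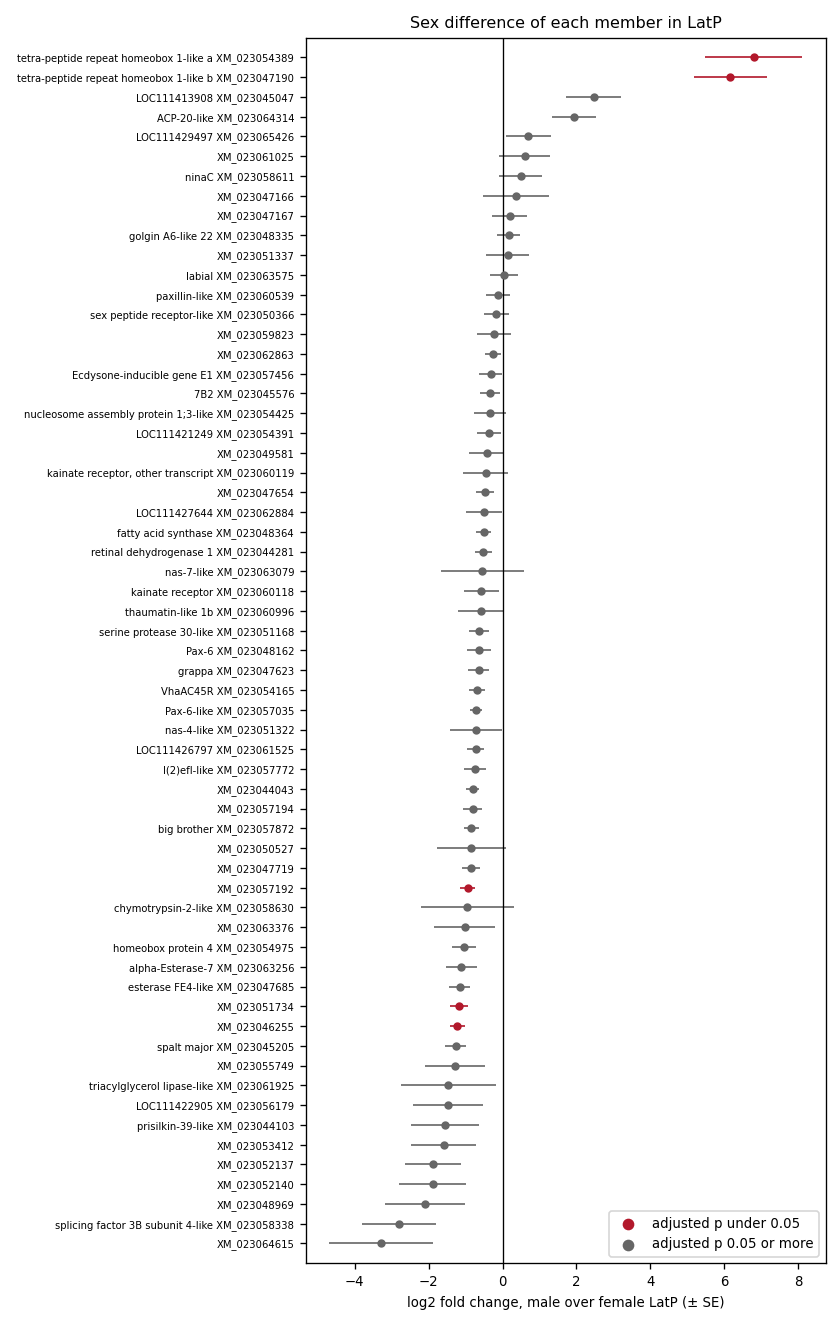
Log2 fold change of male over female LatP for the 61 members, with SE, from edgeR's quasi-likelihood fit; red points are the 5 members with an adjusted p under 0.05 and grey points the others. The values are negative for 49 members, and the tetra-peptide repeat pair stands apart at 6.79 and 6.16.

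Outside LatP no member was called between the sexes by edgeR. In LatA 41 members could be tested and 5 had an unadjusted p under 0.05, against 7.29% of the 12690 transcripts tested, of which 0% were called. In MA 5 of 38 members had an unadjusted p under 0.05, against 5.34% of 12667 transcripts, of which 0% were called. In MP it was 17 of 51 members, 10 higher and 7 lower in males, against 8.05% of 12649 transcripts, of which 0.0949% were called. The members not tested in a region were too low there to pass the filter. The rule used the levels of these regions in both sexes, so nothing is read from these shares. DESeq2 called XM_023058338.1 lower in males in LatA, where it called 0.552% of all transcripts, and in MA, where it called 0.529%. It called nucleosome assembly protein 1;3-like and chymotrypsin-2-like higher in males in MP, against 1.45% of all transcripts. Both were in the top 80 of females but not in that of males. The rule used their MP levels, which were low in females, so these calls are a description. XM_023058338.1 averaged 0.579 CPM in male and 20.9 CPM in female LatA, where females 3 and 5 held nearly all of it.

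The sex difference of the LatP excess, that is of LatP over the mean of the other regions, was fitted as an interaction over 14792 transcripts. The rule chose members by this excess over both sexes together, so a difference between the sexes is part of how some of them became members, and the values are a description. Without a block edgeR called no member and 0% of all transcripts. An unadjusted p under 0.05 was seen in 4 members, 2 in each direction, against 3.52% of all transcripts. XM_023047190.1 came nearest, with a larger excess in males by a log2FC of 4.90 (SE 0.93). The pieces of a head come from 1 animal, and with the animal as a replicate block 3 members were called, against 2.15% of all transcripts. All 3 had a larger excess in males, a direction in which 2.01% of all transcripts were called, and nothing is read from these shares, since all 3 were in the top 80 of males and none in that of females. They were XM_023047190.1 (log2FC 4.65, SE 0.48), XM_023054389.1 (log2FC 4.81, SE 0.61) and LOC111413908 (log2FC 1.54, SE 0.32). All 3 were also called with the block when male 1 and female 2, whose anterior libraries stood closer to other regions, were left out, and esterase FE4-like (XM_023047685.1) was then called with a smaller excess in males (log2FC -2.54, SE 0.65). DESeq2 called XM_023047190.1 and XM_023054389.1 without a block, against 0.595% of all transcripts. Under the block 46 members had a negative value, of which none was called with all 11 animals, and esterase FE4-like had a log2FC of -2.06 (SE 0.60).

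Left and right LatP gave no called member. Of 14494 transcripts tested, edgeR called 0%, and 3 members had an unadjusted p under 0.05, against 2.24% of all. With the replicate block, the count was again 0, with a smallest adjusted p of 0.495 among members. In that fit 10 members had an unadjusted p under 0.05, 3 higher and 7 lower on the left, against 5.83% of all transcripts. DESeq2 also called no member, against 0.0345% of all transcripts. Pax-6-like averaged 14.3 CPM in left and 10.1 CPM in right LatP (log2FC 0.47, SE 0.15, without a block). That fit does not pair the sides of an animal. The right side was the higher one only in male 1 and female 1, and the transcript was called neither without nor with the block. Over all members the median absolute difference between sides of an animal was 0.42 on the log2 scale, and that between 2 animals of the same sex was 0.61.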

How the data were processed

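Each dissected piece gave 1 stranded single-end library. The authors trimmed reads with Trimmomatic 0.32, mapped them with Bowtie2 2.3.2 onto NCBI's *O. taurus* gene models and estimated abundance with RSEM 1.3.0. The authors deposited expected counts for 23725 RefSeq transcripts, without normalization, and these were rounded to whole numbers before testing. RSEM divides reads between similar transcripts, so levels of isoforms and near copies are uncertain.

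Counts were scaled with TMM and tested with the quasi-likelihood F-test of edgeR 4.0.16 (limma 3.58.1, R 4.3.3), with Benjamini-Hochberg adjustment over all transcripts with more than 1 CPM in 2 or more of the columns in a comparison. A call is an adjusted p under 0.05. The SE is the log2FC divided by the square root of F. Left and right counts of an animal were added for the sex comparisons. Animals were labelled, so pieces pair by animal, and left and right LatP of an animal correlated after group means were removed (mean r 0.415, lowest 0.228, n = 11). Members and lists were chosen with earlier results of these data known. Described in the text are the 12 members with the largest rank difference, those called in a test, up to 4 per product group, those at the edge of the top 80 and further transcripts of a member's gene; others were chosen after their values were seen. Names came from the study's supplementary tables and symbols from IU_Otau_3.0. Alternatives were RLE factors, no filter beyond a summed count of 2, DESeq2 1.42.0, separate sides, the replicate block, an adjusted p under 0.001 with an absolute log2FC over 2, and each animal left out. For the ranking they were a pseudocount of 0.1, plain totals, medians, single sexes or sides and gene sums. The procedure was tested on simulated data.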

Additional observations from a re-analysis of the deposited data

Results flagged for a closer look

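Within 122 sets of LatP values (61 members, each sex), 8 held an animal far from the others of its sex by Dixon's criterion. It was applied to log2(CPM + 1), whereas the levels below are in CPM. Chance flags about 1 in 20 independent sets, or 6.1, but these sets share the same animals and are not independent. Male 2 was low for the Ecdysone-inducible gene E1 match XM_023057456.1 (2.83 CPM against 9.16 to 13.9 CPM in the other males), retinal dehydrogenase 1, XM_023044281.1 (15.6 CPM against 30.4 to 50.4 CPM), and lethal(2)essential for life-like, XM_023057772.1 (12.3 CPM against 23.1 to 30.4 CPM). Male 4 was low for XM_023057192.1 (5.81 CPM against 8.27 to 10.8 CPM) and esterase FE4-like, XM_023047685.1 (2.63 CPM against 4.66 to 6.23 CPM). Female 2 was high for lethal(2)essential for life-like (79.2 CPM against 30.6 to 35.7 CPM in the other females) and XM_023057192.1 (26.2 CPM against 15.5 to 16.7 CPM), and female 3 was low for XM_023049581.1 (3.70 CPM against 13.0 to 22.5 CPM).

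The excess of LatP over the other regions differed between the sexes with the animal as block for 3 members, by a male minus female log2FC of 4.65 for XM_023047190.1, 4.81 for XM_023054389.1 and 1.54 for XM_023045047.1. The 3 were in the top 80 of males and not of females, so the rule that chose them used these values.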

How the results depend on the processing

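Under other rankings, 33 of the 61 members stayed in the top 80 with a pseudocount of 0.1, 37 with medians over animals and 34 with males only. The other rankings kept between 41 (females only) and 61 members (RLE factors), among them 53 to 57 with 1 animal left out. The count of 5 members called between the sexes in LatP was 3 with no filter, 16 with DESeq2, 19 with sides as separate replicates and 0 at an adjusted p under 0.001 with an absolute log2FC over 2, and 0 to 5 with 1 animal left out. XM_023047190.1 was called in 10 of the 11 fits that left out an animal. DESeq2 called 1 member in LatA, 1 in MA and 2 in MP, against 0 with edgeR. For the LatP excess, the count of 0 became 1 with RLE factors, 2 with DESeq2, 3 with the replicate block, 4 with the block and male 1 and female 2 left out, and 0 to 1 with 1 animal left out (1 without male 1 or male 5). The block left the left-right count at 0. No direction of a called member turned under any alternative run. Chosen after seeing the data were an exchange of the MA and right LatA libraries of male 1, which kept 59 members, and leaving out male 1 and female 2; without a block, both left the counts in LatA, in MA and of the LatP excess at 0. In a single library, 3 counts are at most 0.278 CPM, and lower levels rest on fewer counts there. The adjusted p-values of the 5 calls in LatP lay between 0.0197 and 0.0455, and the causes of the changes between settings were not tested.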
